A study of Mus musculus with 7 samples.

Results

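Apelin, adrenomedullin, Vegfa and a set of peptide hormone receptors were followed in SMB21 cells, a mouse medulloblastoma line. The set has 10 members of the 24047 genes in the count table: the ligand genes Apln, Adm and Vegfa, the receptor genes Aplnr, Calcrl, Gipr and Kdr, and the accessory protein genes Ramp1, Ramp2 and Ramp3. They were taken by gene symbol, and the set was chosen by the strong differences of Apln, Ramp2 and Gipr counts between the CRISPR guides in these same libraries. The levels and fold changes of the members are therefore given as a description, without a test. A total of 8 members had enough counts to enter the model, which covered 12875 genes, and Aplnr and Kdr did not.

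The 3 groups were cells with a guide against Ofd1 (3 libraries), cells with a guide against Kif3a (2 libraries) and cells with a guide against GFP as the control (2 libraries). Kif3a encodes a kinesin-2 motor subunit and Ofd1 a protein of centrioles, and both genes are needed for primary cilia. All 3 groups share the Ptch mutant background of the line (Ptch1tm1Mps/J), neurosphere culture in DMEM/F12 with B27, and a lentiCRISPR vector, and RNA was taken 2 weeks after infection. The labels call the replicates biological. Whether pools or clones were sequenced, and which guide sequences were used, is not given in the sources used here. A GFP replicate beyond these, mentioned in the series text, was not analysed here.

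Apelin is a secreted peptide that acts through the G protein-coupled receptor Aplnr, mostly on endothelium and heart. Adrenomedullin signals through Calcrl, a class B receptor that reaches the cell surface with one of the accessory proteins: Ramp1 makes it a receptor for calcitonin gene-related peptide, and Ramp2 or Ramp3 makes it an adrenomedullin receptor coupled to Gs and cAMP. Gipr is the class B receptor for the gut hormone GIP, and Kdr is the main signalling receptor for Vegfa on endothelial cells. Vegfa, Adm and Apln are known targets of the hypoxia-inducible factors.

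Library totals ran from 17961767 to 23022701 counts. A count of 3 was taken as an approximate upper limit for the expected count behind an observed 0. It was worth 0.130 to 0.167 CPM in these libraries (read counts divided by library size and scaled with TMM factors). Reads carried no molecular identifiers, and such limits cover counting error only. All 14 markers of medulloblastoma and granule neuron progenitors lay above 1 CPM in every library. The Kif3a transcript had 73.9 and 60.5 CPM with the Kif3a guide, against 104.0 CPM in each GFP control library (log2 fold change -0.63, edgeR adjusted p = 0.000854). The Ofd1 transcript ranged over 20.0 to 22.0 CPM with the Ofd1 guide, against 22.6 and 23.2 CPM in GFP control (log2 fold change -0.12, edgeR adjusted p = 0.398). All 3 of those libraries lay below both GFP control libraries, but the difference did not pass the test. In Kif3a CRISPR the Ofd1 transcript had 31.7 and 29.0 CPM and was higher than in GFP control (log2 fold change 0.41, edgeR adjusted p = 0.0126), a call lost without either GFP control library (0.103 and 0.0639) or Kif3a CRISPR replicate 1 (0.114). GFP control replicate 1 stood apart in 1 respect: the summed level of 16 microglia and macrophage markers was 27.6 CPM there and 2.96 to 4.73 CPM in the other 6 libraries. Of the 16, 14 had a count in some library and 11 of these were highest in that one, among them Ctss (7.47 CPM), Lyz2 (5.95 CPM), Itgam (3.10 CPM), Ptprc (2.26 CPM), Csf1r (1.23 CPM) and Tyrobp (1.18 CPM), named after their values were seen, while Cx3cr1 and Lyz1 had no count in any library.

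The stretches before the gene starts of the 3 ligand genes are shown because all 3 ligands were lower in both guides and are known targets of hypoxia-inducible factors, whose core site is ACGTG or GCGTG. Each is 250 bases long, ends at the base before the RefSeq gene start, and is printed from 5′ to 3′ on the gene's strand (RefSeq, GRCm38.p6); capitals mark either core on either strand. Apln lies at chrX:48034854-48035103 (minus strand), Adm at chr7:110627407-110627656 (plus strand) and the outer Vegfa start at chr17:46032378-46032627 (minus strand).
Apln: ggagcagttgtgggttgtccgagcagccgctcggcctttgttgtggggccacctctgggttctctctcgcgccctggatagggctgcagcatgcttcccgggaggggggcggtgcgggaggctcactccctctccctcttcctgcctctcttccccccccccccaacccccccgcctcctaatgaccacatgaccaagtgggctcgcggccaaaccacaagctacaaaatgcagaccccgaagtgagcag
Adm: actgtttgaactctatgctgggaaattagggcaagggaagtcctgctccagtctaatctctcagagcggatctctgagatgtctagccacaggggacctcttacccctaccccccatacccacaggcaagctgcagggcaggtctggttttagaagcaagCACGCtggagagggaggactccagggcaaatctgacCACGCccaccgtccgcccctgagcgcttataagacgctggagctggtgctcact
Vegfa: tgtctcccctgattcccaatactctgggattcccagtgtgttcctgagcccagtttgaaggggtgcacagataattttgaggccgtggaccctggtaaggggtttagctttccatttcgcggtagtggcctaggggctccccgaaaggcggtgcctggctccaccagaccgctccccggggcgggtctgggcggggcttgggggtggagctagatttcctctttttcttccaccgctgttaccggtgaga
The Adm stretch holds GCGTG at 2 places, which begin 90 and 54 bases before the start, both on the opposite strand and so printed as CACGC. The stretches of Apln and of the outer Vegfa start hold neither core. The second, inner RefSeq start of Vegfa has ACGTG and GCGTG beginning 211 and 218 bases before it, and the 2 sites overlap no base. That inner stretch (chr17:46025164-46025413, minus strand) lies downstream of the outer start, inside the Vegfa gene. Its 2 sites are therefore not upstream of the whole gene. Sequences were found for 7 of the 10 members. Ramp3 and Kdr have GCGTG at 2 places each, and Ramp1 and Calcrl have neither core. Among all 32851 promoter stretches of the same length, 38.6% hold ACGTG or GCGTG, 16.6% the first and 28.2% the second. The cAMP response element TGACGTCA, the Gli site TGGGTGGTC and the E-box CACGTG stand in 1.55%, 0.225% and 6.02% of all stretches and in none of the 8 stretches of the members; CACGTG holds ACGTG within it. A match describes the letters in a window and is no evidence of a bound site.

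The Apln gene had 7.59, 7.18 and 9.00 CPM in Ofd1 CRISPR libraries, 2.38 and 3.13 CPM in Kif3a CRISPR libraries, and 16.4 and 14.1 CPM in GFP control libraries. The 3 groups did not overlap, with Kif3a CRISPR lowest and GFP control highest. Against GFP control the log2 fold change of Apln was -0.95 (SE 0.147) in Ofd1 CRISPR and -2.48 (SE 0.185) in Kif3a CRISPR, which is a 1.93-fold and a 5.59-fold lower level. In bulk RNA, fewer cells that express a gene and less RNA per cell cannot be told apart, here or for any other member.

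Adm was the least even of the ligand genes. It had 20.5, 18.2 and 47.0 CPM in Ofd1 CRISPR libraries, 13.6 and 23.4 CPM in Kif3a CRISPR libraries, and 54.2 and 49.4 CPM in GFP control libraries. Both GFP libraries lay above all 5 CRISPR libraries, but Ofd1 CRISPR replicate 3 was close to them, and the Ofd1 and Kif3a libraries overlapped. On the log2 scale Adm differed by -0.86 (SE 0.315) for Ofd1 CRISPR and -1.50 (SE 0.363) for Kif3a CRISPR, both against GFP control. Without Ofd1 CRISPR replicate 3 the Ofd1 value for Adm was -1.42 (SE 0.191). It was -0.66 (SE 0.296) without replicate 1 and -0.62 (SE 0.309) without replicate 2 of Ofd1 CRISPR.

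Vegfa had the highest level per kb of transcript of all members in each library. Its levels were 266, 302 and 383 CPM in Ofd1 CRISPR libraries, 158 and 232 CPM in Kif3a CRISPR libraries, and 694 and 723 CPM in GFP control libraries. The 3 groups did not overlap. The log2 fold change of Vegfa was -1.16 (SE 0.154) for Ofd1 CRISPR, a 2.24-fold lower level, and -1.87 (SE 0.177) for Kif3a CRISPR, a 3.64-fold lower level, both against GFP control.

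**Figure D1:**
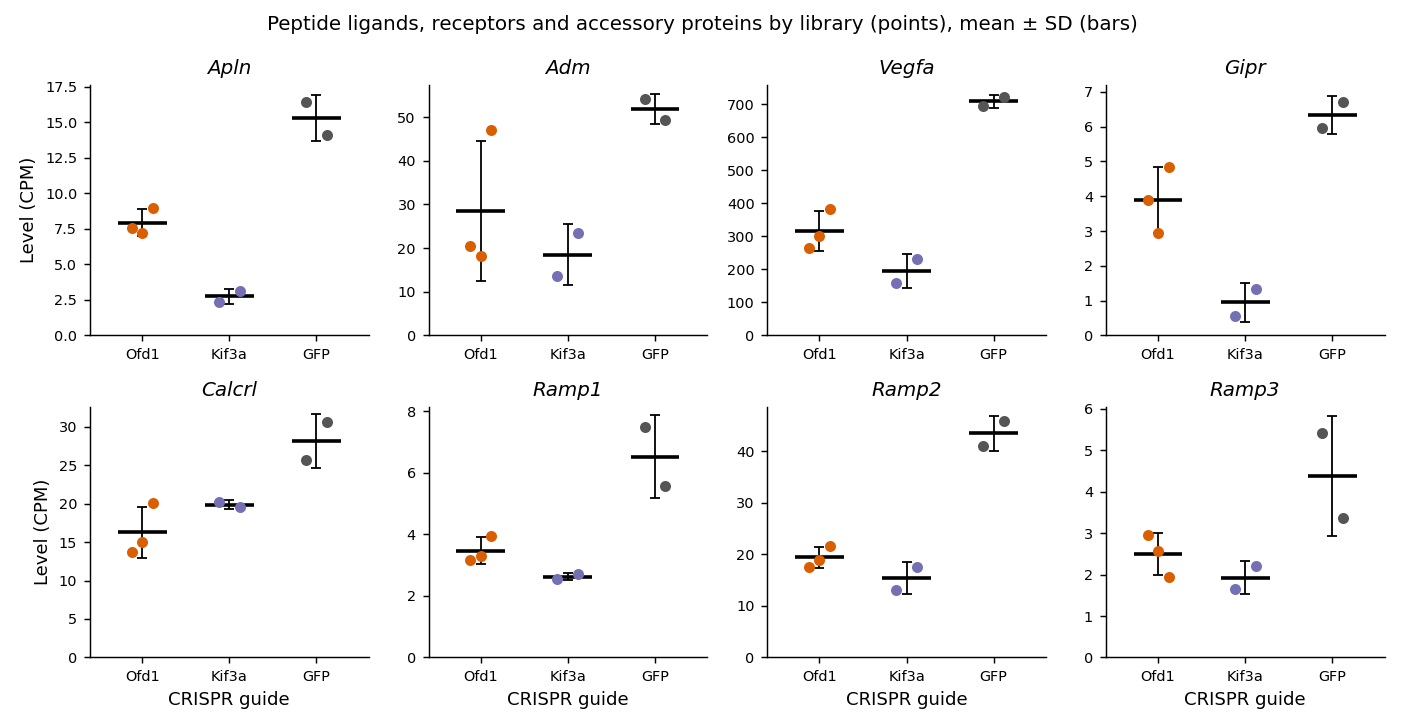
Level in CPM of the 8 members that entered the model, with a panel for each gene and its own axis from 0. Points are libraries of Ofd1 CRISPR (3), Kif3a CRISPR (2) and GFP control (2), the horizontal bar is the mean and the error bar the SD; in every panel all 5 CRISPR points lie below both GFP points.

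Gipr, the GIP receptor, had 3.89, 2.95 and 4.83 CPM in Ofd1 CRISPR libraries, 0.561 and 1.35 CPM in Kif3a CRISPR libraries, and 5.95 and 6.71 CPM in GFP control libraries. The 3 groups did not overlap. The Kif3a values rest on 13 and 25 counts. For Gipr the log2 fold change was -0.70 (SE 0.250) for Ofd1 CRISPR and -2.77 (SE 0.338) for Kif3a CRISPR, and the Kif3a value is a 6.82-fold lower level than in GFP control. With Kif3a CRISPR replicate 1 left out it was -2.22 (SE 0.352), and with replicate 2 left out it was -3.48 (SE 0.398).

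Calcrl, the receptor of the adrenomedullin family, had 13.7, 15.0 and 20.0 CPM in Ofd1 CRISPR libraries, 20.3 and 19.5 CPM in Kif3a CRISPR libraries, and 25.7 and 30.6 CPM in GFP control libraries. It was the only one of the 8 modelled members whose mean was lower in Ofd1 CRISPR than in Kif3a CRISPR, and the libraries of those groups overlapped. On the log2 scale Calcrl differed by -0.79 (SE 0.144) for Ofd1 CRISPR and -0.50 (SE 0.157) for Kif3a CRISPR, against GFP control.

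Aplnr and Kdr, the receptors of apelin and Vegfa, were close to undetected. Aplnr had 1, 0 and 0 counts in the Ofd1 CRISPR libraries, 2 and 0 in the Kif3a CRISPR libraries, and 1 in each GFP control library. Kdr had no count in the Ofd1 CRISPR libraries, 0 and 1 in the Kif3a CRISPR libraries, and 0 and 2 in the GFP control libraries. Every value lay at or under 3 counts, the approximate limit taken for an observed 0. For that reason no fold is given, and a difference was not detectable at this depth. The ligand genes were detected in every library, Apln with at least 55 counts and Vegfa with at least 3654.

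Among the accessory proteins, Ramp2 had the highest level per kb of transcript in every library. It had 17.6, 19.0 and 21.7 CPM in Ofd1 CRISPR libraries, 13.1 and 17.6 CPM in Kif3a CRISPR libraries, and 41.0 and 45.8 CPM in GFP control libraries. Both GFP libraries lay well above the 5 CRISPR libraries, and the higher Kif3a library reached the level of the lowest Ofd1 library. The log2 fold change of Ramp2 was -1.16 (SE 0.124) for Ofd1 CRISPR and -1.51 (SE 0.141) for Kif3a CRISPR, a 2.24-fold and a 2.84-fold lower level than in GFP control.

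Ramp1 had 3.15, 3.28 and 3.96 CPM in Ofd1 CRISPR libraries, 2.55 and 2.70 CPM in Kif3a CRISPR libraries, and 7.47 and 5.56 CPM in GFP control libraries. The groups did not overlap, and the log2 fold change was -0.91 (SE 0.188) for Ofd1 CRISPR and -1.31 (SE 0.216) for Kif3a CRISPR. Ramp3 had 2.96, 2.56 and 1.95 CPM in Ofd1 CRISPR libraries, 1.64 and 2.21 CPM in Kif3a CRISPR libraries, and 5.41 and 3.36 CPM in GFP control libraries. Its Ofd1 and Kif3a libraries overlapped, and GFP control replicate 1 was far above replicate 2. For Ramp3 the log2 fold change was -0.81 (SE 0.256) for Ofd1 CRISPR and -1.20 (SE 0.292) for Kif3a CRISPR. Without GFP control replicate 1, the library with more macrophage marker RNA, these Ramp3 values were -0.43 (SE 0.308) and -0.81 (SE 0.335). Over the 8 modelled members without that library, the log2 fold changes ran from -1.24 to -0.43 for Ofd1 CRISPR and from -2.86 to -0.62 for Kif3a CRISPR.

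All 8 modelled members had their 5 CRISPR libraries below both GFP libraries, as had 20.7% of all modelled genes. At an edgeR adjusted p under 0.05 the count of members called lower was 5 of 8 in Ofd1 CRISPR, beside 8.09% of all genes, and 8 of 8 in Kif3a CRISPR, beside 10.9% of all genes. The 3 not called in Ofd1 CRISPR were Adm, Ramp3 and Gipr. The median log2 fold change of the 8 was -0.88 in Ofd1 CRISPR and -1.50 in Kif3a CRISPR, and the medians over all 12875 genes were 0.00282 and 0.00797. These contrasts chose the members, so nothing is read from the counts or the medians. Both comparisons use the same GFP libraries.

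**Figure D2:**
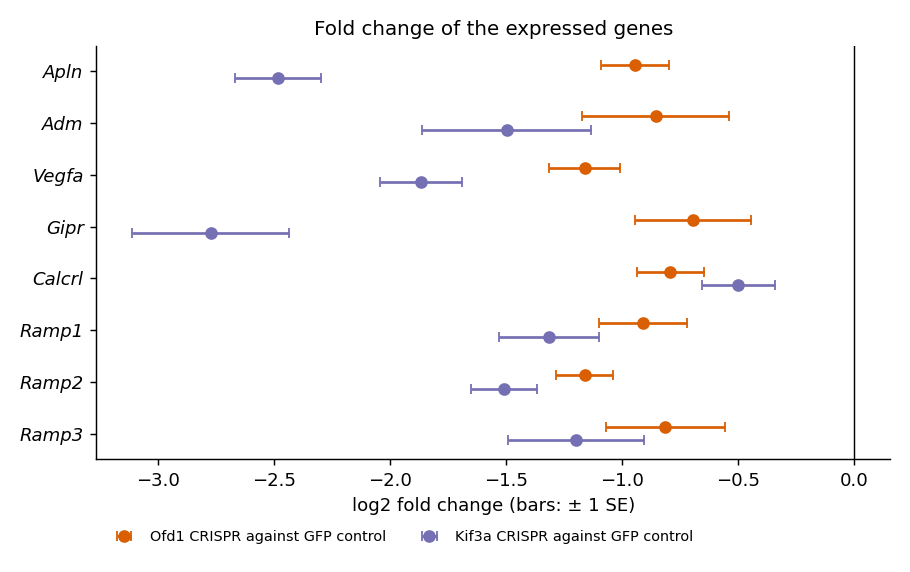
Log2 fold change against GFP control for Ofd1 CRISPR and Kif3a CRISPR, with bars of 1 SE from the edgeR fit, for the 8 modelled members. Every value is below 0, and the distance between the guides is widest for Gipr (-0.70 and -2.77) and Apln (-0.95 and -2.48).

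Set directly against each other, the guides differed most for Gipr and Apln among the members. The log2 fold change of Ofd1 CRISPR over Kif3a CRISPR was 2.07 (SE 0.333) for Gipr and 1.54 (SE 0.181) for Apln, a 4.21-fold and a 2.90-fold higher level in Ofd1 CRISPR. These 2 members were called higher, beside 0.171% of all genes, and that contrast too was in view when they were chosen. For the other 6 modelled members it ran from -0.29 (Calcrl) to 0.70 (Vegfa). With Kif3a CRISPR replicate 1 left out, the Ofd1 over Kif3a values were 1.52 (SE 0.347) for Gipr and 1.34 (SE 0.215) for Apln. No gene of the 13240 then modelled passed the threshold in that comparison by edgeR, and 555 had an unadjusted p under 0.05. DESeq2 and limma-voom, run on all 7 libraries, called 83 and 21 genes there.

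Levels of different genes were compared per kb of transcript, taking the longest annotated transcript of each gene that is paired with a RefSeq mRNA. In the GFP control, Vegfa had 205 ± 5.93 CPM per kb (SD, n = 2), Adm 37.3 ± 2.47 and Ramp2 36.9 ± 2.89, and the last 2 genes did not differ beyond their spread. Calcrl (5.77 ± 0.712 CPM per kb) and Apln (4.85 ± 0.513) came next, followed by Ramp3 (3.55 ± 1.18), Ramp1 (2.80 ± 0.580) and Gipr (2.22 ± 0.190). From Calcrl down to Gipr, each gene overlapped the next in this order within 1 SD of the means. In the Kif3a CRISPR libraries Vegfa was again first at 56.4 ± 15.2 CPM per kb (SD, n = 2), and Gipr was last at 0.334 ± 0.195, below Apln at 0.874 ± 0.169.

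The share of accessory protein RNA relative to the receptor RNA also differed between groups. The ratio of Ramp2 to Calcrl, both as CPM per kb, was 5.32, 5.23 and 4.48 in the Ofd1 CRISPR libraries, 2.69 and 3.73 in the Kif3a CRISPR libraries, and 6.62 and 6.21 in the GFP control libraries. The 3 groups did not overlap in this ratio, and all libraries had more Ramp2 than Calcrl RNA per kb. The ratio of Ramp1 to Calcrl was 0.483, 0.459 and 0.415 in the Ofd1 CRISPR libraries, 0.264 and 0.290 in the Kif3a CRISPR libraries, and 0.610 and 0.381 in the GFP control libraries, whose values surround those of Ofd1. Ramp2 made up 79.9% to 88.4% of the summed Ramp level per kb over the 7 libraries. The ratios are made of member levels and carry no test.

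**Figure D3:**
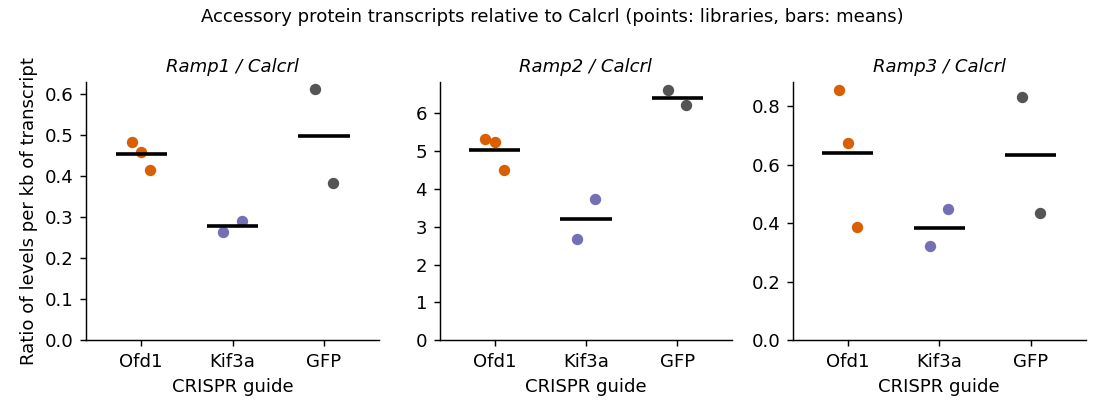
Ratio of Ramp1, Ramp2 and Ramp3 to Calcrl, all as CPM per kb of transcript, by library (points) with the group mean (bar), axes from 0. Ramp2 to Calcrl runs from 4.48 to 5.32 in Ofd1 CRISPR, from 2.69 to 3.73 in Kif3a CRISPR and from 6.21 to 6.62 in GFP control; the Ramp3 groups overlap.

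The genes whose profiles were most like those of the 3 members named in the choice were found over all 7 libraries, by the root-mean-square difference of log2 CPM after centring each gene on its mean. For Apln they were Loxl2 (0.142), a lysyl oxidase family enzyme that crosslinks collagen, Plekha2 (0.158) and the collagen prolyl hydroxylase subunit P4ha2 (0.229), where the median over 11457 genes of at least 2 CPM was 0.952. For Gipr they were Loxl2 (0.301), Apln itself (0.325) and P4ha2 (0.346), with a median of 1.14. For Ramp2 they were the neutral amino acid transporter Slc1a4 (0.0962), the proline synthesis enzyme Aldh18a1 (0.0983) and the sphingosine kinase Sphk1 (0.0991), with a median of 0.631. When the other members were set against these 3, the closest pair was Vegfa and Ramp2 (0.185) and the farthest was Calcrl and Gipr (1.08).

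**Figure D4:**
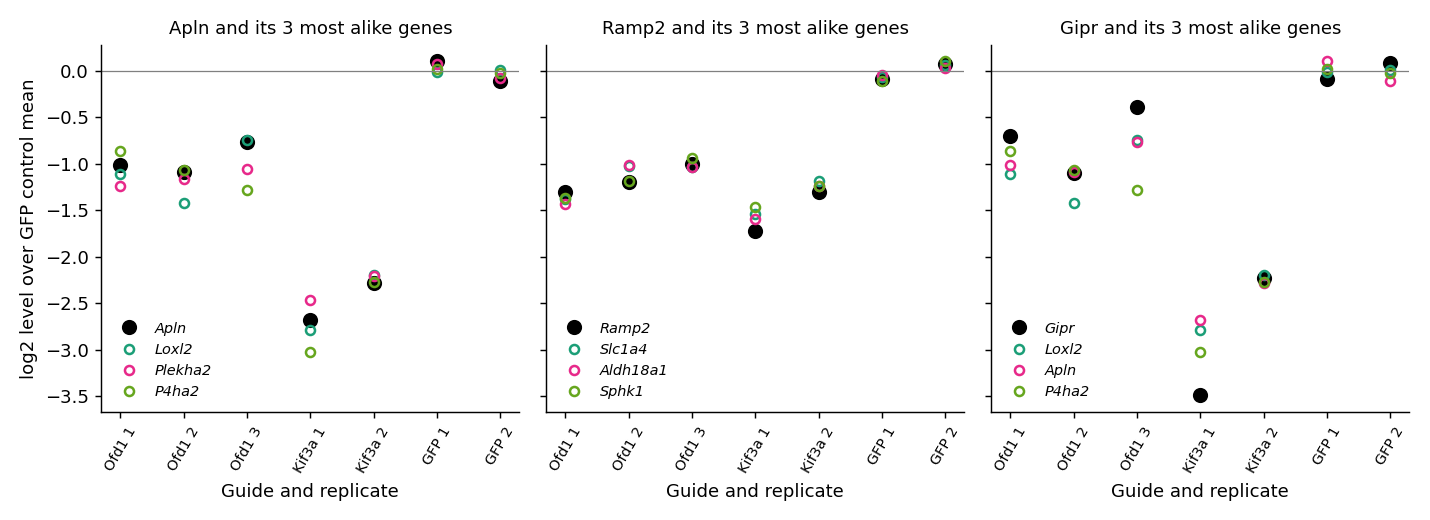
Log2 level over the GFP control mean in each of the 7 libraries for Apln, Ramp2 and Gipr (filled points) and the 3 genes with the most similar profile to each (open points). The Kif3a CRISPR libraries lie far below the Ofd1 CRISPR libraries for Apln and Gipr and their like genes, and close to them for Ramp2 and its like genes.

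These 6 non-members were picked for profiles like those of members that were themselves chosen for their guide differences, over the same 7 libraries, so their levels are a description with no test. Loxl2 averaged 37.1 ± 8.69 CPM in Ofd1 CRISPR (SD, n = 3), 14.1 ± 4.04 in Kif3a CRISPR (n = 2) and 77.7 ± 0.857 in GFP control (n = 2), with log2 fold changes of -1.06 (SE 0.165) and -2.47 (SE 0.201). Aldh18a1 averaged 168 ± 25.7 CPM in Ofd1 CRISPR, 141 ± 23.9 in Kif3a CRISPR and 372 ± 13.7 in GFP control, with log2 fold changes of -1.15 and -1.41. For Plekha2, P4ha2, Slc1a4 and Sphk1 the log2 fold changes ran from -1.15 to -1.06 in Ofd1 CRISPR and from -2.62 to -1.35 in Kif3a CRISPR.

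Of the genes next to the members on the chromosome, by name in the GENCODE M21 annotation, 14 entered the model. Of these, 3 fell in Ofd1 CRISPR and 4 in Kif3a CRISPR, beside 8.09% and 10.9% of all genes. None rose, beside 6.79% and 9.19% of all genes. Vps25, an ESCRT subunit gene that overlaps Ramp2 on the same strand, passed in neither guide, with -0.08 in Ofd1 CRISPR and -0.18 in Kif3a CRISPR on the log2 scale (edgeR adjusted p = 0.594 and 0.211). Gipr's neighbours Snrpd2 and Eml2 and Apln's neighbour Ocrl did not pass in either guide, with log2 fold changes from -0.09 to 0.18. Ezh1, a Polycomb methyltransferase gene beside Ramp2, fell in both guides (log2 fold changes -0.41 and -0.49, edgeR adjusted p = 0.00518 and 0.00223, the Ofd1 call lost without GFP control replicate 1 at 0.0779). Sbf2, beside Adm, fell in both guides (log2 fold changes -0.28 and -0.41, edgeR adjusted p = 0.0113 and 0.00163, the Ofd1 call lost without either GFP library at 0.0777 and 0.148). Kit, a receptor tyrosine kinase gene beside Kdr, fell in both guides with log2 fold changes as large as those of some members (-0.70 and -0.84, edgeR adjusted p = 0.0211 and 0.0114). The Ofd1 call of Kit was lost without either GFP control library or Ofd1 CRISPR replicate 2 (0.0565 to 0.183), and its Kif3a call without GFP control replicate 1 or either Kif3a CRISPR library (0.0724 to 0.0977). Tnks1bp1, beside Aplnr, fell in Kif3a CRISPR (-0.28, edgeR adjusted p = 0.0371), a call lost without any GFP control or Kif3a CRISPR library or without Ofd1 CRISPR replicate 2 (0.0524 to 0.311). The gene 1600014C23Rik beside Vegfa, with 3 to 22 counts a library, was at -1.25 (SE 0.617) and -0.95 (SE 0.650) and passed in neither guide (edgeR adjusted p = 0.195 and 0.331). An antisense gene overlaps Adm and an opposite-strand pseudogene overlaps Ramp3; the strand setting of the counting is not given in the sources used here, and the pseudogene had no count in any library.

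Targets of the hypoxia-inducible factors other than the members fell broadly. In Ofd1 CRISPR 19 of 23 modelled targets fell and none rose, and in Kif3a CRISPR 21 of 23 fell and none rose (edgeR adjusted p under 0.05), beside 8.09% and 10.9% of all genes called lower. Their median log2 fold change was -0.64 and -1.11. Ero1l, an endoplasmic reticulum oxidase, fell in Ofd1 CRISPR and Kif3a CRISPR (log2 fold changes -1.10 and -1.59, edgeR adjusted p = 0.000141 and 1.2e-05). The prolyl hydroxylase Egln3, which marks HIF for degradation, fell in the same comparisons (-0.90 and -1.68, edgeR adjusted p = 0.000276 and 8.42e-06), and the glucose transporter Slc2a3 fell as well (-0.55 and -1.11, edgeR adjusted p = 0.0004 and 8.42e-06). The lactate dehydrogenase gene Ldha, named after its values were seen, averaged 1544 CPM in Ofd1 CRISPR, 1144 in Kif3a CRISPR and 2402 in GFP control. In the direct comparison of Ofd1 CRISPR against Kif3a CRISPR, 7 of the 23 were higher in Ofd1 CRISPR, beside 0.171% of all genes, and without Kif3a CRISPR replicate 1 none passed edgeR, 14 of them at an unadjusted p under 0.05. Against GFP control with single libraries left out, 15 to 19 targets fell in Ofd1 CRISPR and 19 to 21 in Kif3a CRISPR, and at most 1 rose. The fall of such genes in these libraries was known when the list was drawn up and is no independent support for the members.

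**Figure D5:**
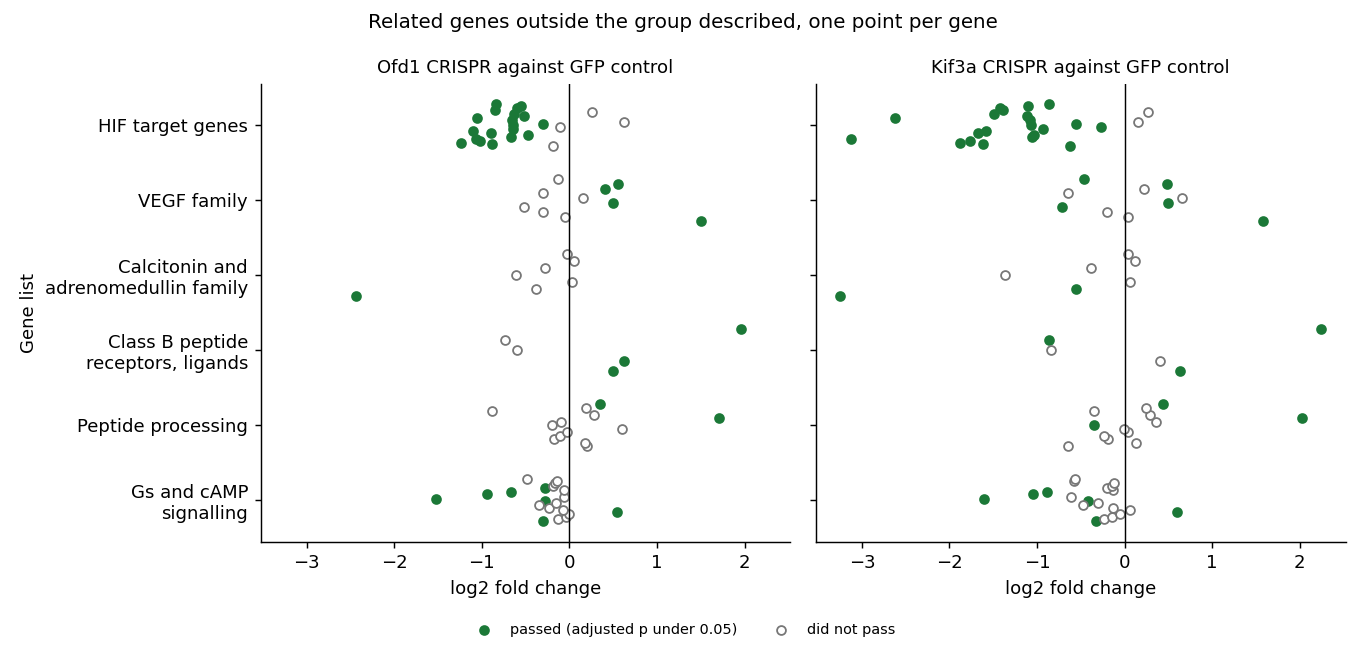
Log2 fold change of each modelled non-member in 6 gene lists, for Ofd1 CRISPR against GFP control and Kif3a CRISPR against GFP control; filled points passed an edgeR adjusted p under 0.05 and open points did not. The hypoxia-inducible factor targets lie mostly below 0 (medians -0.64 and -1.11), while the VEGF family has points on both sides.

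The rest of the VEGF family had calls in both directions. Of 10 modelled relatives, receptors and co-receptors, 4 rose and none fell in Ofd1 CRISPR, and 3 rose and 2 fell in Kif3a CRISPR, with medians of 0.05 and 0.13. Of all genes, 6.79% were called higher in Ofd1 CRISPR and 9.19% in Kif3a CRISPR. In Ofd1 CRISPR the VEGF calls depended on the control libraries. The 4 risers kept their direction without GFP control replicate 2, a fit that leaves 1 GFP library. Their log2 fold changes there were 1.60 (Figf), 0.59 (Vash2), 0.46 (Plxnd1) and 0.35 (Vash1). In Kif3a CRISPR none passed edgeR without GFP control replicate 1 or without Kif3a CRISPR replicate 1, where 8 of 10 and 6 of 12 had an unadjusted p under 0.05. With GFP control replicate 2 left out 1 rose and 3 fell, and with Kif3a CRISPR replicate 2 left out 1 rose and 1 fell. Figf, which encodes Vegf-D, averaged 2.38 CPM in Ofd1 CRISPR, 2.51 in Kif3a CRISPR and 0.844 in GFP control, and it rose by 1.50 and 1.58 on the log2 scale (edgeR adjusted p = 0.0154 and 0.0118). These Figf calls were lost without GFP control replicate 1 (0.118 and 0.0851), the Ofd1 call also without GFP control replicate 2 (0.0745) and the Kif3a call also without Kif3a CRISPR replicate 1 (0.157). The semaphorin receptor Plxnd1 and the vasohibin Vash2 also rose in both guides, and Vash1 in Ofd1 CRISPR, each with a call lost without at least 1 GFP control library. Vegfb fell in Kif3a CRISPR (log2 fold change -0.46, edgeR adjusted p = 0.00439), and leaving out GFP control replicate 1 (0.0636) or Kif3a CRISPR replicate 1 (0.0765) ended this call. The other faller was Pgf, the placental growth factor gene, at -0.71 (edgeR adjusted p = 0.0404), which was named after its values were seen. The Pgf call was lost when either GFP control library, either Kif3a CRISPR library or Ofd1 CRISPR replicate 2 was left out (0.0524 to 0.307).

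In the calcitonin and adrenomedullin family, 1 of 7 modelled non-members fell in Ofd1 CRISPR and 2 fell in Kif3a CRISPR, beside 8.09% and 10.9% of all genes. Adm2, which encodes the related peptide intermedin, averaged 0.177 CPM in Ofd1 CRISPR, 0.102 in Kif3a CRISPR and 0.971 in GFP control and was the one called in both (edgeR adjusted p = 0.0345 and 0.0206). Its values are near the limit of 3 counts, and the Adm2 calls were lost without GFP control replicate 2 (0.324 and 0.166) and without either Kif3a CRISPR library (0.0892 and 0.091 in Ofd1 CRISPR, 0.263 and 0.095 in Kif3a CRISPR). The Ofd1 call also ended without Ofd1 CRISPR replicate 1 or 2 (0.0657 and 0.0707). Arrb1, a beta-arrestin gene, was the second in Kif3a CRISPR (log2 fold change -0.55, edgeR adjusted p = 0.0307), and that call was lost without any GFP control or Kif3a CRISPR library (0.0619 to 0.192). In the apelin and endothelin list none of 6 modelled non-members passed edgeR, DESeq2 or limma-voom in either guide, and at an unadjusted edgeR p under 0.05 the count was 0 in Ofd1 CRISPR and 1 in Kif3a CRISPR.

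Among other class B receptors and ligands, 3 of 5 rose in Ofd1 CRISPR (6.79% of all genes did), and 2 rose and 1 fell in Kif3a CRISPR (9.19% and 10.9% of all genes), while the members Gipr and Calcrl had lower levels in both guides. Vipr1, a receptor for vasoactive intestinal peptide, had 19.4, 15.0 and 9.15 CPM in Ofd1 CRISPR libraries, 22.2 and 13.2 CPM in Kif3a CRISPR libraries, and 4.37 and 3.11 CPM in GFP control libraries. It rose by 1.96 (SE 0.328) and 2.25 (SE 0.343) on the log2 scale (edgeR adjusted p = 0.00272 and 0.00101). Adcyap1r1, the PACAP receptor, averaged 292 CPM in Ofd1 CRISPR, 319 in Kif3a CRISPR and 207 in GFP control and rose by 0.50 and 0.63 (edgeR adjusted p = 0.00248 and 0.000691). Both genes kept these calls with any 1 library left out. Crhr1 rose in Ofd1 CRISPR (0.63, edgeR adjusted p = 0.0111) and Pthlh fell in Kif3a CRISPR (-0.86, edgeR adjusted p = 0.046), and both calls were lost without either GFP control library, at 0.119 and 0.0577 for Crhr1 and at 0.188 and 0.138 for Pthlh, whose call also ended without either Kif3a CRISPR library (0.193 and 0.205).

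Of 13 modelled genes for cutting, amidating and packing peptide precursors, 2 rose in Ofd1 CRISPR, and 2 rose and 1 fell in Kif3a CRISPR, beside 6.79%, 9.19% and 10.9% of all genes. Pcsk5, a proprotein convertase, averaged 18.4 CPM in Ofd1 CRISPR, 22.9 in Kif3a CRISPR and 5.65 in GFP control, and it rose by 1.71 and 2.02 on the log2 scale (edgeR adjusted p = 0.000393 and 9.67e-05), with no call lost when 1 library was left out. Pam, the enzyme that amidates adrenomedullin, passed in neither guide, at -0.03 and 0.04 on the log2 scale (edgeR adjusted p = 0.838 and 0.816); it was named after its values were seen. Downstream of Gs, 6 of 20 cAMP pathway genes fell and 1 rose in Ofd1 CRISPR (8.09% and 6.79% of all genes), and 5 fell and 1 rose in Kif3a CRISPR (10.9% and 9.19%). Without single libraries 2 to 8 fell in Ofd1 CRISPR, with 2 when GFP control replicate 2 was left out and 3 without Ofd1 CRISPR replicate 2 or with the first GFP control library left out, and 3 to 7 fell in Kif3a CRISPR, with 3 when GFP control replicate 1 or Kif3a CRISPR replicate 1 was left out. The phosphodiesterase Pde10a averaged 17.6 CPM in Ofd1 CRISPR, 16.7 in Kif3a CRISPR and 50.4 in GFP control, and it fell in both (log2 fold changes -1.52 and -1.60, edgeR adjusted p = 0.000125 and 2.23e-05). Pde4b fell too (-0.94 and -1.05, edgeR adjusted p = 0.00131 and 0.000784), and neither gene lost a call when 1 library was left out. Gnas, the Gs alpha subunit gene, fell in both (-0.28 and -0.42, edgeR adjusted p = 0.0249 and 0.00369), but both Gnas calls depended on single libraries. In Ofd1 CRISPR the call ended without either GFP control library or without Ofd1 CRISPR replicate 1 or 2 (0.0525 to 0.218), and in Kif3a CRISPR without GFP control replicate 1 (0.0505) or Kif3a CRISPR replicate 1 (0.0605).

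Since several members are best known from blood vessels, vessel markers were read beside them. The summed level of 16 endothelial markers was 224, 434 and 387 CPM in Ofd1 CRISPR libraries, 222 and 369 CPM in Kif3a CRISPR libraries, and 683 and 705 CPM in GFP control libraries, and it lay lower in all 5 CRISPR libraries, as the members did. Sox18 carried most of this sum, with means of 333 CPM in Ofd1 CRISPR, 284 in Kif3a CRISPR and 673 in GFP control. The others above 1 CPM in any library were Egfl7, Plvap and Cdh5, at up to 14.7, 4.32 and 1.75 CPM. Each of these was highest in a GFP control library. Cldn5 and Sox17 had no count in any library, and Pecam1 reached at most 0.668 CPM. In each library 12 to 14 of the 16 lay under 1 CPM. The log2 fold changes of the 6 modelled ran from -1.02 to 1.61 in Ofd1 CRISPR and from -1.78 to 1.91 in Kif3a CRISPR. By edgeR 1 of 6 and 4 of 6 were called lower, beside 8.09% and 10.9% of all genes. None was called higher by edgeR, and limma-voom called 1 higher in Kif3a CRISPR. Of the 6 modelled, Sox18 fell in Ofd1 CRISPR (edgeR adjusted p = 0.0162), but not with either GFP control library left out (0.0622 and 0.0652). In Kif3a CRISPR 4 fell (Sox18, Egfl7, Plvap and Cdh5), and without Kif3a CRISPR replicate 1 none of the 7 then modelled passed edgeR, 5 of them at an unadjusted p under 0.05. The Cdh5 call was also lost without GFP control replicate 2 (0.0922) or Kif3a CRISPR replicate 2 (0.075), and the Plvap call without GFP control replicate 1 (0.065). The summed level of 14 mural and fibroblast markers was 102 to 191 CPM in Ofd1 CRISPR and 105 and 148 CPM in Kif3a CRISPR. It was 297 and 285 CPM in GFP control. Most of this sum was Pdgfra (means of 129, 110 and 262 CPM). The others above 1 CPM in any library were Notch3, Cspg4 and Abcc9, at up to 16.1, 10.4 and 1.05 CPM. Each of these was highest in a GFP control library. Rgs5 and Pdgfrb had 1 count each over all libraries. Of 7 modelled mural markers 2 fell in Ofd1 CRISPR and 3 in Kif3a CRISPR, beside 8.09% and 10.9% of all genes, and 1 fell in Ofd1 CRISPR without GFP control replicate 1 and 1 in Kif3a CRISPR without Kif3a CRISPR replicate 1. The part of such cells in the members' levels was not tested.

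The macrophage marker sum was 3.39 to 4.73 CPM in Ofd1 CRISPR, 3.37 and 3.67 CPM in Kif3a CRISPR, and 27.6 and 2.96 CPM in GFP control. The members' values without that first GFP library are given with Ramp3. Of 3 modelled macrophage markers none passed edgeR, DESeq2 or limma-voom in Ofd1 CRISPR, and 2 had an unadjusted edgeR p under 0.05. In Kif3a CRISPR Ctss alone fell (edgeR adjusted p = 0.0344), a call that ended without either Kif3a CRISPR library (0.228 and 0.154) or Ofd1 CRISPR replicate 3 (0.0504), and Ctss had too few counts to be modelled once the first replicate of GFP control or of Ofd1 CRISPR was left out. Ctss was at 0 in Ofd1 CRISPR replicate 2, both Kif3a CRISPR libraries and GFP control replicate 2. With GFP control replicate 2 left out, 8 macrophage markers were modelled in place of 3. The only control was then GFP control replicate 1, in which 11 of the 14 detected markers were highest. A fall of these markers in the guides was therefore set by that library, and nothing is read from it. Of 14 medulloblastoma markers, 5 rose and 5 fell in each guide. Of all genes, 6.79% rose and 8.09% fell in Ofd1 CRISPR, and 9.19% rose and 10.9% fell in Kif3a CRISPR. Pax6, a rhombic lip factor, rose by 0.73 and 0.97 (edgeR adjusted p = 0.000458 and 7.23e-05). The Hedgehog target Ptch1 fell (log2 fold changes -0.91 and -1.25, edgeR adjusted p = 0.00265 and 0.000559). Some calls ended with single libraries left out: Gli1, Gli2 and Mycn in Ofd1 CRISPR, and Gli1, Gli2, Hhip and Barhl1 in Kif3a CRISPR.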

How the data were processed

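Raw counts per gene symbol were deposited by the authors in 1 table, 7 libraries of which were used; per the labels' protocols the kit was stranded and poly-A based, with 75-base single-end reads. The submitters' processing notes list STAR, DESeq2 and build mm9 without versions or roles; which counter, annotation and strand setting made the counts is not given in the sources used here. After edgeR's filterByExpr, 12875 of 24047 genes were tested in edgeR 4.0.16 (R 4.3.3, limma 3.58.1) with TMM factors, 1 mean per group, quasi-likelihood F tests and Benjamini-Hochberg adjustment, with 4 residual degrees of freedom; a call is an adjusted p under 0.05, and SE is the log2 fold change divided by the square root of F. P-values weigh a group difference against the spread between these libraries, estimated over all 3 groups.

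On simulated counts for 12791 genes, 77 of 100 genes changed by 0.5 on the log2 scale and 100 of 100 changed by 1 were recovered for Ofd1 CRISPR, and 75 and 97 of 100 for Kif3a CRISPR. Unchanged genes called in the simulation numbered 5 for Ofd1 CRISPR and 13 for Kif3a CRISPR. The changed genes were drawn from those above 2 CPM, and each gene was given the spread of the fitted trend. Recovery for genes at lower levels or with more spread was therefore not measured. The members and the 11 gene lists were chosen with earlier results of these data known. Named genes are the members, the called genes with the 4 smallest adjusted p per list and guide, chromosome neighbours and the 3 most alike genes of Apln, Ramp2 and Gipr. A total of 15 alternatives were run, including DESeq2 1.42.0, limma-voom and each library left out. Symbols were matched to RefSeq promoters (GRCm38.p6) and GENCODE M21 for lengths and neighbours.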

Additional observations from a re-analysis of the deposited data

Results flagged for a closer look

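A difference between the effects of the guides, from the direct comparison of Ofd1 CRISPR over Kif3a CRISPR, marks 8 of the genes described. For the members Apln (log2 fold change 1.54) and Gipr (2.07) it is a description, since they were chosen with this difference in view. The same holds for P4ha2 (1.56), Loxl2 (1.41) and Plekha2 (1.19), which were picked for their likeness to Apln or Gipr in these libraries. For 3 targets of the hypoxia-inducible factors the edgeR test passed: 0.86 for Pfkfb3 (adjusted p = 0.00426), 0.78 for Egln3 (0.0058) and 0.56 for Slc2a3 (0.00426), all from a list drawn up with earlier results known. All 8 were lower than GFP control in both guides and lower in Kif3a CRISPR than in Ofd1 CRISPR. Among all genes tested, 23 passed in this comparison. None of the 3 targets passed edgeR without Kif3a CRISPR replicate 1, where their adjusted p was 0.257 for Pfkfb3 and Slc2a3 and 0.265 for Egln3.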

How the results depend on the processing

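All log2 fold changes of the 8 modelled members against GFP control were below 0 under the 15 alternatives. The number of all genes called lower also moved with the setting. With no single library left out, it ran from 852 to 1876 in Ofd1 CRISPR and from 1189 to 1904 in Kif3a CRISPR. The count of members called lower ran from 4 to 8 in Ofd1 CRISPR and from 5 to 8 in Kif3a CRISPR. The genes called in Ofd1 CRISPR against GFP control numbered 1915, and 664 to 2831 with single libraries left out; in Kif3a CRISPR against GFP control they numbered 2584, and 686 to 3119. In Ofd1 CRISPR against Kif3a CRISPR they numbered 23, with 0 to 50 when single libraries were left out, 83 with DESeq2 and 80 with no filter on low counts. With library totals alone, 57.5% of calls in Ofd1 CRISPR were higher, against 45.6% with TMM factors; the median of all genes moved by less than 0.1.

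Same-numbered libraries deviated together for GFP with Ofd1 (correlations 0.199 and 0.190) and Ofd1 with Kif3a (0.234 and 0.152). For GFP with Kif3a they did not (-0.00857). GFP control and Kif3a CRISPR have 2 libraries each, so deviations within each of these groups are exact opposites. The correlations of a group pair are therefore not independent of each other. No label says that the number marks a shared batch, and the libraries were treated as unpaired. With a replicate block, 3496 genes were called in Ofd1 CRISPR and 3575 in Kif3a CRISPR, both against GFP control. In Ofd1 CRISPR against Kif3a CRISPR 191 were called. The members called lower in Ofd1 CRISPR then numbered 7 in place of 5, and those called higher than in Kif3a CRISPR 3 in place of 2. Under that block the calls numbered 8 in the VEGF list and 5 in the processing list in Kif3a CRISPR, 11 in the cAMP list, 3 among endothelial and 1 among macrophage markers in Ofd1 CRISPR, and 2 macrophage markers in Kif3a CRISPR.

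With only the groups compared, 3574 genes were called in Kif3a CRISPR and 1706 in Ofd1 CRISPR, both against GFP control. Calls in Kif3a CRISPR then numbered 8 in the VEGF list and 5 in the processing list. The apelin and endothelin list had 1 there and the macrophage markers 0, and the calcitonin list had 0 in Ofd1 CRISPR. With DESeq2 the calcitonin list had 0 calls in both guides, the endothelial markers 0 in Ofd1 CRISPR and the macrophage markers 0 in Kif3a CRISPR, and DESeq2 gave no adjusted p for 8 of 113 list genes in Ofd1 CRISPR. With limma-voom, macrophage markers had 0 calls in Kif3a CRISPR. With no filter, endothelial markers had 2 calls and macrophage markers 1 in Ofd1 CRISPR. With the stricter filter, the calcitonin list had 0 in Ofd1 CRISPR and 1 in Kif3a CRISPR, and macrophage markers 0 in Kif3a CRISPR. The causes were not tested.

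Counted over the list genes modelled with all 7 libraries, leaving out single libraries gave 0 to 0 calls for the apelin and endothelin list in both guides. In Ofd1 CRISPR and Kif3a CRISPR it gave 0 to 1 and 0 to 2 for the calcitonin list, 0 to 5 and 0 to 7 for the VEGF list, 2 to 4 and 2 to 3 for class B peptides, 1 to 3 and 1 to 4 for processing, 2 to 9 and 3 to 8 for cAMP, 15 to 20 and 19 to 22 for HIF targets, 0 to 3 and 0 to 4 for endothelial, 0 to 2 and 0 to 2 for macrophage, 1 to 2 and 1 to 3 for mural and 7 to 10 and 6 to 11 for medulloblastoma markers. With 2 or 3 libraries a group and under 10 CPM for Apln, Gipr, Ramp1 and Ramp3 in the CRISPR libraries, small differences were not detectable.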
